A study of Mus musculus with 6 samples.

Results

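The 9 genes described here are early response genes of the mouse: the orphan nuclear receptors Nr4a1, Nr4a2 and Nr4a3, the zinc finger transcription factors Egr1, Egr2 and Egr3, and the regulators Ier2, Ier3 and Zfp36. They were found on the array by gene symbol, 1 probe for each, and are 9 of 15224 genes tested. The genes were chosen by their log2 intensities in siSpt6 against siControl cells, with earlier results of that comparison known. Their differences are therefore given as a description, with standard errors (SE) and standard deviations (SD) but without p-values. The samples were 6 RNA preparations from CH12F3-2A, a line grown from a mouse B cell lymphoma whose cells can change from IgM to IgA in culture. A control siRNA (siControl, 3 samples) or an siRNA against Spt6 (siSpt6, 3 samples) was introduced by electroporation. CIT, a mixture of CD40 ligand, interleukin 4 and TGF-beta, was added to the cells of both groups after 24 h, and RNA was taken another 24 h later. By its title the study dealt with Spt6, a histone chaperone that accompanies RNA polymerase II, and the targeting of the deaminase AID.

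Early response genes are transcribed within minutes of a signal, from factors that the resting cell already holds, and most of their transcripts are short-lived. In B cells the antigen receptor and CD40 reach them through calcium, MAP kinases and the factors CREB, MEF2 and SRF. NR4A receptors bind DNA and act without a known natural ligand, EGR proteins bind GC-rich sites and are held in check by the NAB co-repressors, and ZFP36 (tristetraprolin) binds AU-rich elements and brings on mRNA decay. All RNA here was taken 24 h after CIT, so the arrays show a late state and not the first wave after stimulation.

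Promoter stretches of 4 genes are shown to let their letters be read beside the values: these are the genes with the largest differences, so the choice follows the outcome. Nr4a3, too dim for a difference to be detectable, holds as many TGACG copies as Nr4a1. Whether the letters go with the differences was not tested. RefSeq windows (GRCm38.p6, 250 bases before to 50 after a transcript's start site) were matched by symbol for 6 of the 9 genes: Nr4a1, Nr4a2, Nr4a3, Egr2, Ier3 and Zfp36. Capitals mark TGACG, the half-site of the cAMP response element, on either strand (CGTCA on the other), the SRF-type CArG box (CC, then A or T in a row, then GG) and the EGR-type site GCGGGGGCG on either strand. In the Egr2 stretches only the CArG box is in capitals. The Nr4a1 stretch lies at chr15:101266606-101266815 on the plus strand, the Nr4a2 stretch at chr2:57124104-57124208 on the minus strand and the Zfp36 stretch at chr7:28379269-28379338 on the minus strand. Egr2 has several start sites, and its 2 stretches lie at chr10:67537484-67537513 and chr10:67537787-67537816 on the plus strand.
Nr4a1: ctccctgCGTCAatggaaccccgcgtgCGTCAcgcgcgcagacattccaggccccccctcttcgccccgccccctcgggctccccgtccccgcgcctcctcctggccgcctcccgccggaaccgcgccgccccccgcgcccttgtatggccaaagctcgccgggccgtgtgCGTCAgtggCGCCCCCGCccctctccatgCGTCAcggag
Nr4a2: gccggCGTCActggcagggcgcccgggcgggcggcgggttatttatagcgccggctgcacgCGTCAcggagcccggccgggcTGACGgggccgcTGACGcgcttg
Zfp36: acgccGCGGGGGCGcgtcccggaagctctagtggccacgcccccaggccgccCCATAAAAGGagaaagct
Egr2, upstream box: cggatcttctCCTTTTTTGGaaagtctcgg
Egr2, downstream box: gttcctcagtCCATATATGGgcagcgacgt

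Each of the NR4A windows held 4 copies of TGACG, Egr2 had at most 2 in a window, and Zfp36 and Ier3 had 0. Of 32851 windows in the RefSeq table, 20.8% held at least 1 copy and 0.231% held 4 or more. That cutoff of 4 equals the count in the NR4A windows, so the small share is not an independent measure of rarity. The full palindrome TGACGTCA, which contains the half-site on both strands, was in 0 of the 6 genes' windows and in 1.79% of all. A CArG box was found in Zfp36, from 58 to 49 bases before the start site, and in Egr2, which has 2 distinct boxes, 1 of them shared by 3 overlapping windows. Of all windows 1.63% held a CArG box, and of all genes with a window 1.81%. The site GCGGGGGCG was in the Nr4a1 and Zfp36 windows (2.91% of all windows), and GCGTGGGCG, the other EGR site searched, was in 0 of the 6 genes (0.612% of all). AP-1 sites (TGANTCA, 7.81% of all windows) and the NR4A monomer site AAAGGTCA (1.51%) were also found in 0 of the 6. The ETS core CCGGAA was present in 3 of the 6 genes (14.9% of all windows, 16.7% of all genes with a window). TATAAA was in 1 of them, Nr4a2 (13.6% of windows, 15.7% of genes). These are matches of letters in a short window, and binding was not measured.

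On each array between 21526 and 22372 of 23473 probes had a value, in arbitrary units of intensity. Log2 intensities correlated between arrays with Pearson's r of 0.988 to 0.991 within groups and 0.975 to 0.981 between groups, across probes, which are not independent replicates. Supt6, the siRNA's target, read 33.1, 32.1 and 32.1 in siControl and 25.1, 21.8 and 28.1 in siSpt6, so its groups did not overlap. Its log2 difference of -0.38 (SE 0.13) did not pass the threshold (limma unadjusted p = 0.0225, limma adjusted p = 0.0973). Of 10 B cell markers 9 were tested, and their summed intensity was 30416 to 34470 in siControl and 31411 to 34667 in siSpt6. Cd74 was the largest part of that sum, with means of 21108 and 17745 (limma adjusted p = 0.245), while Cd79b went from 5787 to 8455. The similar sums therefore do not show that each marker was steady. By limma's adjusted p Cd79b and Blk rose and Cd22 fell. The 5 T cell markers tested summed to between 35.6 and 49.1 on any array, and the 5 myeloid markers to between 67.1 and 87.5, with no marker of either list past the threshold (limma; at an unadjusted p under 0.05 there were 0 and 1). The labels do not say whether samples of 1 group were separate cultures. SDs and p-values thus describe how these 6 preparations vary, and that variation may be technical. The groups carry sample numbers from separate ranges, and a difference in handling between groups cannot be told apart from the siRNA. In bulk RNA such as this, fewer cells of a type and less RNA per cell cannot be told apart.

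Among the NR4A receptors, Nr4a1 was far higher in siSpt6, Nr4a2 moderately higher, and Nr4a3 was close to the bottom of the scale. Nr4a1 (Nur77), a receptor whose level in lymphocytes follows the strength of antigen receptor signals, read 67.5, 59.0 and 58.1 in siControl and 478, 460 and 520 in siSpt6. The lowest siSpt6 value exceeded the highest siControl value by 392 units, so the groups lay well apart. Means were 61.5 ± 5.20 and 486 ± 30.8 (intensity ± SD, n = 3 each), a log2 difference of 2.98 (SE 0.12) or a 7.90-fold higher level. It ranked 13th among 21584 probes by the size of the rise, and leaving out any 1 array kept the log2 difference between 2.93 and 3.05.

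Nr4a2 (Nurr1), the receptor best known from dopamine neurons and also induced in lymphocytes, read 30.7, 32.3 and 27.8 in siControl and 46.4, 48.1 and 43.4 in siSpt6. All siSpt6 values were above all siControl values, by at least 11.1 units. Its means of 30.3 ± 2.28 and 46.0 ± 2.39 (intensity ± SD, n = 3 each) gave a log2 difference of 0.60 (SE 0.12), or 1.52-fold. Nr4a3 (Nor1), the third receptor of the family, read 1.56 and 2.64 on 2 siControl arrays, was blank on siControl replicate 3, and read 3.12, 2.02 and 1.48 in siSpt6. Its groups overlapped, and its log2 difference of 0.05 (SE 0.37) was smaller than its own error. At this intensity a difference between the groups was not detectable, and the fit used 5 arrays for this gene. The log2 differences of the 3 paralogs thus ran from 0.05 to 2.98.

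**Figure D1:**
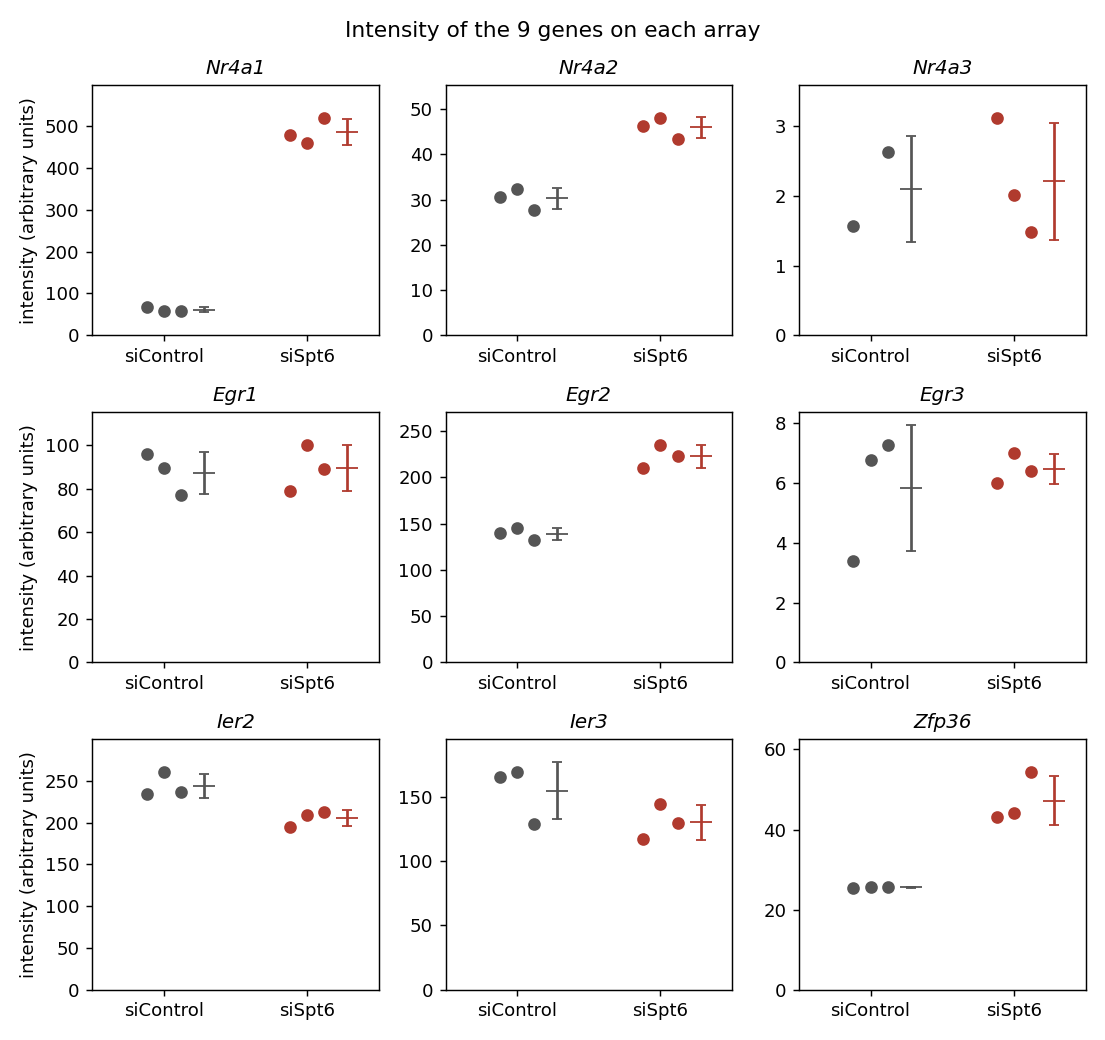
Intensity in arbitrary units (vertical axes, each from 0) of the 9 genes on the 3 siControl arrays (grey) and the 3 siSpt6 arrays (red), with 1 point per array and a bar for the mean ± SD beside the points. Groups do not overlap for Nr4a1, Nr4a2, Egr2, Zfp36 and Ier2, of which Ier2 is lower in siSpt6; Nr4a3 has 2 siControl points because 1 array was blank.

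Of the EGR factors only Egr2 had groups that did not overlap. Egr2 (Krox-20), which restrains lymphocyte activation and is also known from myelinating cells, read 140, 145 and 132 in siControl and 210, 235 and 223 in siSpt6. Every siSpt6 array was above every siControl array, by at least 64.6 units. Means were 139 ± 6.43 and 223 ± 12.7 (intensity ± SD, n = 3 each), and the log2 difference was 0.68 (SE 0.11), a 1.60-fold higher level. Egr1 (Krox-24, Zif268), the most widely used readout of MAP kinase signalling among these genes, read 96.0, 89.5 and 77.0 in siControl and 79.2, 100 and 89.3 in siSpt6. The values of the 2 groups were interleaved, with means of 87.5 ± 9.67 and 89.6 ± 10.6 and a log2 difference of 0.03 (SE 0.15). Leaving out any 1 array moved the difference of Egr1 between -0.06 and 0.12.

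Egr3, a relative of Egr2 with partly shared functions in lymphocytes, was dim, with 3.40, 6.77 and 7.26 in siControl and 5.99, 6.99 and 6.39 in siSpt6. The low siControl value was that of replicate 1, and the siSpt6 values fell inside the siControl range. Its log2 difference of 0.23 (SE 0.29) became -0.12 when siControl replicate 1 was left out and reached 0.43 without siControl replicate 3. No direction can be given for Egr3 from these arrays.

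Among the regulators Zfp36 was higher in siSpt6. Ier2 and Ier3 were lower on average, and neither passed limma's threshold. Zfp36, the mRNA decay factor, read 25.4, 25.7 and 25.6 in siControl and 43.1, 44.2 and 54.4 in siSpt6. The siControl arrays were nearly equal, and the siSpt6 arrays were all higher, with replicate 3 the highest. Means were 25.6 ± 0.186 and 47.2 ± 6.22 (intensity ± SD, n = 3 each), a log2 difference of 0.88 (SE 0.13) or 1.84-fold. Without siSpt6 replicate 3, the lowest of the leave-one-out values, it was 0.77.

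Ier2 (Pip92), a short nuclear protein named for its rapid induction, read 234, 261 and 237 in siControl and 195, 209 and 213 in siSpt6. All siSpt6 values were below all siControl values, but the gap was small: means were 244 ± 14.6 and 206 ± 9.48, with a log2 difference of -0.24 (SE 0.11). After quantile and cyclic loess normalization that difference was -0.16 and -0.16. Ier3 (IEX-1), an early response protein with roles in cell survival, read 166, 170 and 129 in siControl and 117, 144 and 130 in siSpt6. The groups overlapped because siControl replicate 3 lay within the siSpt6 range, and the log2 difference was -0.24 (SE 0.16), between -0.37 and -0.17 when 1 array was left out.

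Across the 9 genes the log2 differences ran from -0.24 to 2.98 with a median of 0.23, and 7 of 9 were above 0. That median was 0.36, 0.51 and 0.43 without siControl replicate 1, 2 or 3 (8, 8 and 9 genes tested) and 0.14 with a pseudocount or after cyclic loess normalization. The linear model fitted to all probes called 4 of the 9 (limma, Benjamini-Hochberg adjusted p under 0.05), namely Nr4a1, Nr4a2, Egr2 and Zfp36, all higher in siSpt6. Over all probes 16.3% were called, 7.43% as rises, and over genes 17.0%; rises were 45.5% of the calls as deposited and 57.3% after quantile normalization. Groups did not overlap for 5 of the 8 genes measured on every array, where 37.3% of all such probes had separate groups. As the genes were chosen from the same comparison, nothing is read from these shares, from the calls or from how they held in other fits. Nr4a1, Egr2 and Zfp36 were called in each of the 14 alternative fits, while Nr4a2 was not called without siControl replicate 1, without siControl replicate 3, without siSpt6 replicate 1 or without siSpt6 replicate 2, which left 3 of the genes called. The median SD of the 9 genes within groups was 0.13 on the log2 scale, against 0.20 over all tested probes. The 2 dimmest of the 9, Nr4a3 and Egr3, had SDs of 0.54 and 0.43. All tested probes include dim and bright ones alike, so these medians compare unlike intensities.

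**Figure D2:**
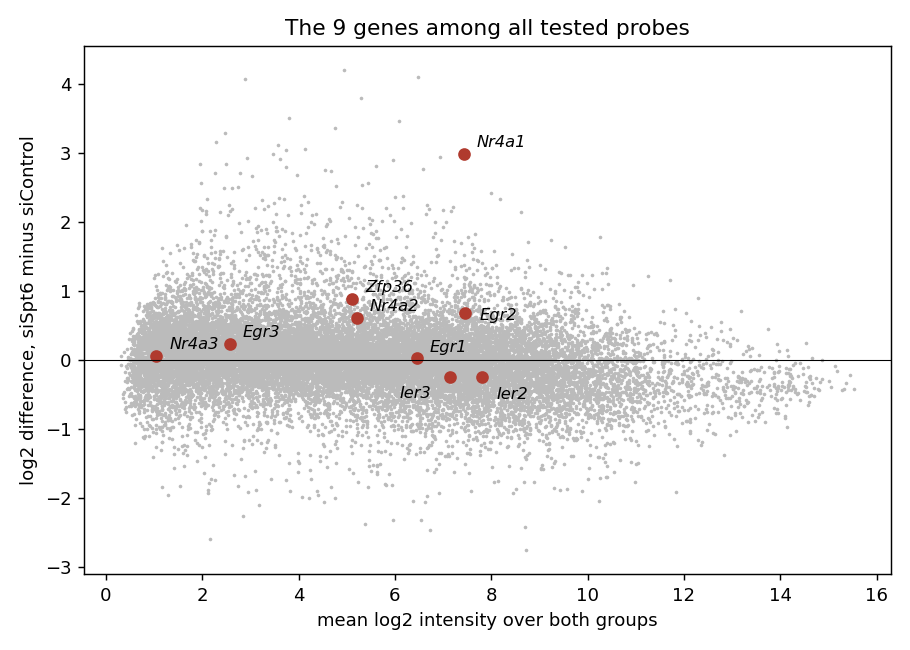
Log2 difference between siSpt6 and siControl (vertical axis) against mean log2 intensity over both groups (horizontal axis) for all 21584 tested probes (grey) and the 9 genes (red, named). Nr4a1 stands at a difference of 2.98 above the bulk of probes, the other 8 genes lie between -0.24 and 0.88, and Nr4a3 and Egr3 sit at the dim end.

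**Figure D3:**
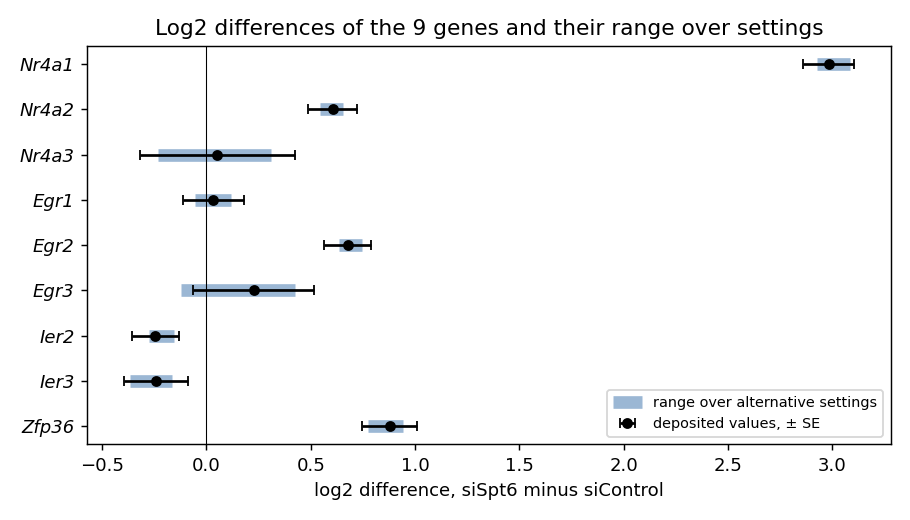
Log2 difference of each gene (horizontal axis) in the deposited values as a black point with ± SE, and its range over the 14 alternative fits as a blue bar (10 fits for Nr4a3 and 13 for Egr3, which some filters left out). The bars of Nr4a1, Nr4a2, Egr2 and Zfp36 stay above 0, those of Ier2 and Ier3 stay below 0, and those of Nr4a3, Egr1 and Egr3 cross it.

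Genes with the most similar profiles were sought for 1 gene of each kind, by the root mean square distance of log2 values over the 6 arrays, each gene taken relative to its siControl mean, among 8177 genes with a value on all 6 arrays and a mean log2 intensity, in at least 1 group, no lower than the typical (median) tested probe. A gene dim in 1 group could thus enter through the other. Nearest to Nr4a1 were Tgfb3, a TGF-beta ligand (distance 0.14), Rell1, a relative of the TNF receptor family protein RELT (0.15), and Catsperd, a sperm calcium channel subunit (0.16). Rell1 read 45.7, 38.0 and 49.4 in siControl and 302, 353 and 366 in siSpt6, while Tgfb3 and Catsperd were dim in the control, with means of 4.45 ± 0.606 and 4.10 ± 0.804, and entered through siSpt6, at 33.6 ± 3.67 and 35.4 ± 3.85. Their distances rest on these dim control values. Nearest to Egr1 were the tubulin folding cofactor Tbce (0.03), Zbtb1 (0.05) and Golga7 (0.05), whose log2 differences were between 0.02 and 0.06. Nearest to Zfp36 were Hint2 (0.03), Chil1 (0.05) and Spsb1 (0.06), with log2 differences of 0.90, 0.85 and 0.84. The distance is built from these same values, so similar log2 differences follow from the choice. They say nothing of a link between the genes.

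The genes around the early response were then counted in 9 lists that hold none of the 9 genes, 126 tested genes in all, of which 13 rose and 12 fell. This number of calls, 25, was 15 without siControl replicate 1 (from 124 genes tested). For comparison, 1126 of all 15224 genes rose and 1469 fell, with a median log2 difference of -0.00. The lists were written with earlier results of these data known, so they are not independent evidence of a direction.

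Other immediate early genes moved both ways: of 42 tested, 9 rose and 4 fell, with a median of -0.02, whose sign turned after quantile normalization (0.02). The chemokine genes Ccl3 and Ccl4 rose most, Ccl3 from 108 ± 7.81 to 348 ± 9.40 (intensity ± SD, n = 3 each, limma adjusted p = 0.000602) and Ccl4 from 25.0 ± 4.96 to 79.7 ± 5.96 (limma adjusted p = 0.00192), both 3.22-fold. The antiproliferative gene Btg2 rose 2.54-fold, reading 286, 289 and 259 in siControl and 824, 681 and 629 in siSpt6, and Csrnp1, a nuclear protein induced by AXIN, rose 2.30-fold (limma adjusted p = 0.00210 and 0.00357). The activation marker Cd69 fell 1.94-fold from 1053 ± 46.6 to 543 ± 24.4 (limma adjusted p = 0.00285). Myc fell 1.99-fold from 1123 ± 172 to 572 ± 132 (limma adjusted p = 0.0224), a call lost without siControl replicate 1 or siControl replicate 2 (limma adjusted p up to 0.0663). The kinase gene Sik1 and the NF-kappaB inhibitor Tnfaip3 fell 1.48-fold and 1.43-fold (limma adjusted p = 0.0242 and 0.0379). Each call ended on leaving out 1 array, for 5 of the 6 (limma adjusted p as high as 0.0766 and 0.102), and quantile and cyclic loess normalization ended that of Tnfaip3 (limma adjusted p = 0.0663 and 0.0681). The count of 4 falls was 1 without siControl replicate 1 and 2 without siControl replicate 2 or any 1 of the siSpt6 arrays, 7 with eBayes trend and robust options and 8 among bright probes only.

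**Figure D4:**
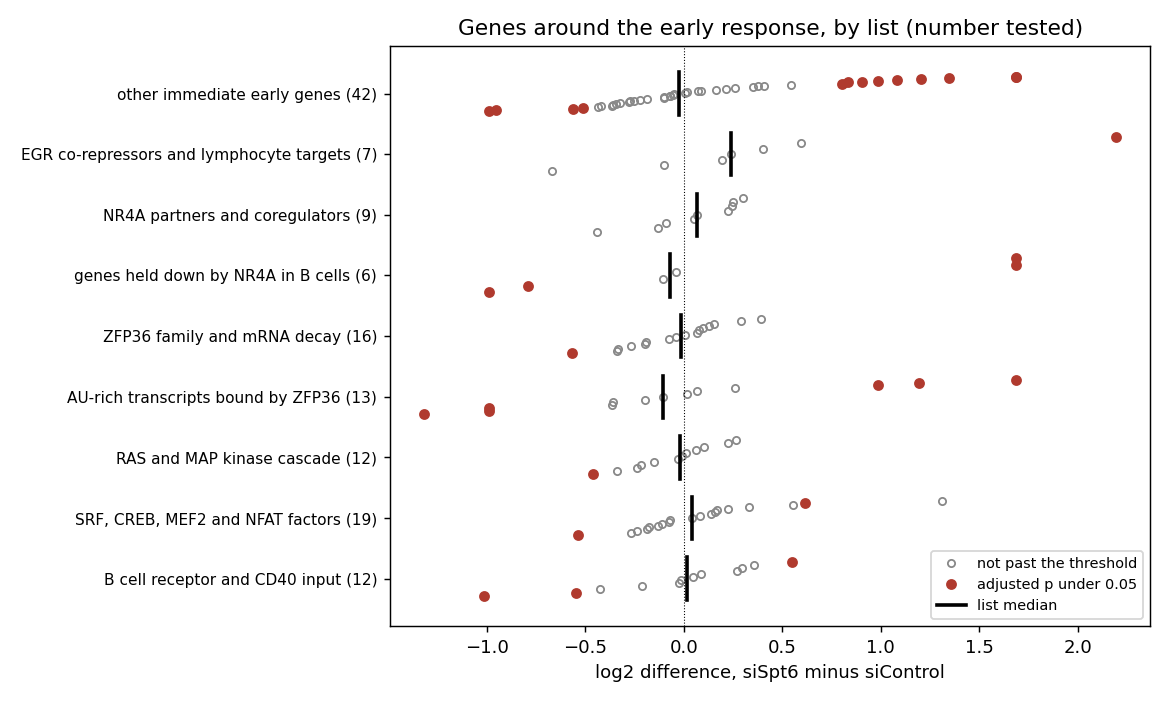
Log2 difference between siSpt6 and siControl (horizontal axis) of every tested gene in the 9 lists around the early response, with the number tested in brackets. Filled red points passed limma's adjusted p under 0.05, open points did not, and the black bar is the list's median; the medians lie between -0.11 and 0.24, and Nab2 is the highest point at 2.19.

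Among partners and targets of EGR proteins 1 of 7 tested genes rose and 0 fell (limma; 3 and 1 at an unadjusted p under 0.05), with a median of 0.24. With a pseudocount the rises numbered 2, and with eBayes trend and robust options or bright probes only there were 2 rises and 1 fall. The gene that rose was Nab2, a co-repressor that EGR proteins induce and that binds them in turn. Nab2 read 50.8, 49.6 and 46.2 in siControl and 196, 208 and 273 in siSpt6, and no siSpt6 array came near the control range. The rise was 4.58-fold (log2 difference 2.19, SE 0.16, limma adjusted p = 0.000656), and leaving out any 1 array kept it between 2.05 and 2.29. Its relative Nab1 had a log2 difference of 0.19 (limma adjusted p = 0.484) and was picked for mention with its value in view. The brightest gene of the list, the inhibitor of DNA binding Id3, did not pass the test (log2 difference -0.67, limma adjusted p = 0.0931).

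None of 9 tested NR4A partners and coregulators passed the test (limma; 0 rises and 1 fall at an unadjusted p under 0.05), with a median of 0.06. The brightest, the histone demethylase Kdm1a, had a log2 difference of -0.13 (SE 0.13). Of 6 genes that NR4A receptors are reported to hold down in stimulated B cells, 2 rose and 2 fell, with a median of -0.07 that became 0.03 after cyclic loess normalization. Ccl3 and Ccl4, given above, were the rises, and Myc and Batf the falls. Batf, an AP-1 family factor needed for class switching, read 693, 807 and 671 in siControl and 388, 420 and 442 in siSpt6, a 1.73-fold fall (limma adjusted p = 0.00821).

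Of 16 ZFP36 relatives and mRNA decay factors tested, 0 rose and 1 fell (limma; 2 and 3 at an unadjusted p under 0.05), with a median of -0.02 that became 0.13 after quantile normalization. The fall was that of Elavl1 (HuR), which binds AU-rich elements and stabilises transcripts, at 1.48-fold (limma adjusted p = 0.0186). Quantile normalization ended this call (limma adjusted p = 0.0780), as did leaving out siControl replicate 1 or 2 or siSpt6 replicate 2 or 3 (limma adjusted p up to 0.0630). After quantile or cyclic loess normalization the counts turned to 1 rise and 0 falls. The rise was that of Cnot8, a deadenylase subunit picked for mention with its values in view, whose log2 difference of 0.39 (SE 0.11, limma adjusted p = 0.0569) became 0.57 after quantile normalization (limma adjusted p = 0.0155). Zfp36l1, the paralog of Zfp36 and the brightest gene of this list, read 1383, 1163 and 1078 in siControl and 1242, 1240 and 1376 in siSpt6, so its groups overlapped. Its log2 difference was 0.10 (SE 0.14).

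Transcripts with AU-rich elements that ZFP36 is known to bind also moved both ways, with 3 rises and 3 falls among 13 tested and a median of -0.11. Tnf, the best known of them, read 79.0, 74.3 and 85.5 in siControl and 30.3, 28.8 and 37.1 in siSpt6, a 2.49-fold fall (log2 difference -1.32, SE 0.14, limma adjusted p = 0.00220). Il10, a cytokine that dampens inflammation, rose 2.29-fold from 115 ± 7.50 to 264 ± 32.8 (limma adjusted p = 0.00282). Fos, a subunit of AP-1, rose 1.98-fold but was dim, at 9.14, 9.75 and 6.54 in siControl and 18.5, 14.5 and 17.1 in siSpt6 (limma adjusted p = 0.0150). Csf2 was near the bottom of the scale (means 3.60 and 1.82), and its fall (limma adjusted p = 0.0396) did not pass with quantile-normalized values (limma adjusted p = 0.0518), with eBayes trend and robust options, or without siControl replicate 1 or 2 or siSpt6 replicate 1 or 2 (limma adjusted p up to 0.103). With a pseudocount its log2 difference went from -0.99 to -0.48. The other rise and fall were Ccl3 and Myc.

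In the RAS and MAP kinase cascade 0 of 12 tested genes rose and 1 fell (limma; 0 and 1 at an unadjusted p under 0.05), with a median of -0.02 that became 0.05 after quantile normalization. The fall was that of the kinase Map2k1 at 1.38-fold (limma adjusted p = 0.0465). Leaving out whichever 1 of the 6 arrays ended its call, as did quantile and cyclic loess normalization (limma adjusted p = 0.177 and 0.132). The brightest gene, Rps6ka1, had a log2 difference of -0.22 (SE 0.12). Among 19 SRF, CREB, MEF2 and NFAT factors 1 rose and 1 fell, and 2 rose with a pseudocount, with eBayes trend and robust options or with bright probes only. Nfatc3, a calcium-regulated factor, rose 1.53-fold (limma adjusted p = 0.0188) and Mef2a fell 1.45-fold (limma adjusted p = 0.0317). The call of Nfatc3 depended on 3 single arrays and that of Mef2a on 5 (limma adjusted p up to 0.0565 and 0.0952 without one), and quantile normalization also ended that of Mef2a (limma adjusted p = 0.0601). Nfatc1, picked for mention with its values in view, had the largest log2 difference of this list (1.31, SE 1.30, limma adjusted p = 0.559), but it read 91.3, 26.6 and 3.42 in siControl and 184, 17.3 and 39.9 in siSpt6, so its arrays varied widely within each group.

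Of 12 genes that carry the antigen receptor and CD40 signal, 1 rose and 2 fell, with a median of 0.02; there was 1 fall after quantile and there were 2 rises after cyclic loess normalization. Prkcb, the protein kinase C that links the receptor to NF-kappaB, read 899, 880 and 909 in siControl and 420, 452 and 460 in siSpt6, a 2.02-fold fall (log2 difference -1.01, SE 0.11, limma adjusted p = 0.00217) that was called in every alternative fit. Syk, the kinase at the receptor, fell 1.46-fold (limma adjusted p = 0.0318) and Cd79b, a signalling chain of the receptor, rose 1.46-fold (limma adjusted p = 0.0391). The call of Syk depended on 4 single arrays and that of Cd79b on 5 (limma adjusted p up to 0.0964 and 0.104 without one). Syk also missed with quantile-normalized values (limma adjusted p = 0.0592). For Cd79b the log2 difference of 0.55 became 0.90 after quantile and 0.89 after cyclic loess normalization, so its size depended on the normalization. This was not particular to Cd79b. With quantile normalization the falls of the bright genes Prkcb and Cd69 shrank from -1.014 and -0.956 to -0.828 and -0.751. Those of Batf and Myc, also bright, shrank from -0.794 and -0.992 to -0.606 and -0.776. The folds given for these falls are from the deposited values. The dim Fos moved the other way, from 0.988 to 0.948.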

How the data were processed

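Expression was measured on 1-colour TORAY arrays with Cy5-labelled RNA, 3 siControl and 3 siSpt6 samples, grouped by the sample titles. The authors deposited linear intensity values in arbitrary units, with blanks taken as missing. Their array medians are nearly equal; for scaling and background correction, no method was given in these sources. Of 23473 probes, 16631 had 1 symbol, and the other 6842 had none or several and were left unnamed. Older symbols of 3947 probes were updated with RefSeq names (GRCm38.p6). The fit used log2 of the intensity with nothing added. A probe with values on 2 of 3 arrays per group was tested with limma 3.58.1 in R 4.3.3 (lmFit and eBayes, two-sided, Benjamini-Hochberg over 21584 probes, threshold 0.05), and the brightest probe stood for a gene. Folds are back-transformed log2 differences.

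The 9 genes and all lists were chosen with earlier results of these data known. Named beyond the 9 were Supt6, up to 4 rises and 4 falls of each list by adjusted p, the brightest gene of lists with fewer than 2 calls, and the 3 nearest profiles to Nr4a1, Egr1 and Zfp36; Nab1, Nfatc1 and Cnot8 were added outside this rule with their values in view. Alternatives were quantile, cyclic loess and median normalization, complete or bright probes only, 2.66 (the 10th percentile of values) as a pseudocount, eBayes with trend and robust options, the replicate block, the mean of a gene's probes, and each array left out. The fit was also run on simulated data in which probes vary independently, so that run checks the code and not the calls here. The number of arrays limits the precision.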

Additional observations from a re-analysis of the deposited data

How the results depend on the processing

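The count of 3525 changed probes lay between 3232 and 4568 under the settings that kept all arrays, and between 2099 and 2522 when 1 array was left out. Their share higher in siSpt6 was 45.5% as deposited, 57.3% after quantile normalization, 53.6% after cyclic loess and 36.7% among the 3974 called with bright probes only. The median log2 difference over the 9 genes, 0.23, was 0.42 with complete probes only and 0.60 with bright probes only, which tested 8 and 7 of the genes, and ran from 0.17 to 0.51 when 1 array was left out. The 25 calls in the lists became 15 to 21 with 1 array left out and 21 to 34 under the other settings; 15 of the 25 genes were called in each of the 14 alternative fits that tested them. The 4 calls among the 9 genes held in every fit on all arrays. As the genes were chosen from this comparison on the same arrays, that is not separate evidence for them. Ier2 was the only one of the 9 whose difference moved by more than its spread after normalization.

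Same-numbered samples correlated in their deviations from the group means at 0.35, 0.08 and 0.26 for replicates 1, 2 and 3, and each sample correlated best with its own number, a hint from the data and not from the design. As 1 pair lay under 0.1, the numbers were not taken to pair the samples. With the replicate number as a block (replicate block) 3594 probes were called, 23 list genes, and the same 4 of the 9 genes; it ended the calls of Cd79b, Csf2, Map2k1 and Tnfaip3, and rises numbered 2 in both the EGR and the SRF, CREB, MEF2 and NFAT lists. The values used carry no background reading, so no detection limit can be given for the dim Nr4a3, Egr3 and Csf2.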
